A study of Caenorhabditis elegans with 6 samples.

Results

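Spermatogenic piRNA loci are the annotated *C. elegans* piRNA genes whose piRNAs are assigned to the male germ line. They were taken as the piRNA rows of the deposited annotation that carry the class Spermatogenic and not the class Oogenic, and a locus missing from a library's file was counted as 0 reads. The rule found 3750 members among the 13994 piRNA loci listed for at least 1 library, beside 1724 oogenic loci and 8520 loci with neither class. Annotated loci listed for no library did not enter. The study sequenced small RNAs of whole synchronized adults grown at 20 °C on the *E. coli* strain OP50, to compare animals with and without EGGD-1, a protein of perinuclear germ granules. The 6 libraries comprised 2 untreated control libraries (labelled genotype pgl-1::RFP, a strain with a tagged P granule protein), 2 untreated *eggd-1* null libraries, and 1 library of each genotype made after oxidation with sodium periodate (NaIO4). The oxidized control was labelled as N2 wild type, so untreated and oxidized animals were set against different control strains, and the labels do not say whether the *eggd-1* strain carries the tag. All libraries were made from RNA treated with PIR-1, a phosphatase that lets RNAs with a 5′ triphosphate be cloned together with the 5′ monophosphate piRNAs. The germ line was not dissected, so fewer cells of a type and less RNA per cell cannot be told apart in any value below.

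piRNAs of *C. elegans* are transcribed one by one from small autonomous genes, trimmed and methylated at the 3′ end, and loaded into the Argonaute PRG-1, which scans germline transcripts and recruits RNA-dependent RNA polymerases to make secondary 22G-RNAs. Most piRNA genes lie in clusters on chromosome IV. Hermaphrodites make sperm as larvae and oocytes as adults, and different sets of piRNAs predominate in the male and the female germ line. Because mature piRNAs carry a 2′-O-methyl group at the 3′ end, they withstand periodate, which damages the unmethylated ends of most other small RNAs.

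The genome-mapped reads, to which the RPM values (reads scaled to a fixed library total) are relative, ranged from 21883625 to 31245662 in the untreated libraries and were 27109317 in the oxidized control and 19457486 in the oxidized *eggd-1* library. A count of 0 allowed up to 0.0960 to 0.154 RPM across the 6 libraries, an upper limit that covers counting error only. 22G-RNAs against *eggd-1* itself (WBGene00008005, chromosome III, 4793086 to 4795423, assembly WBcel235) amounted to 78.1 and 81.1 RPM for untreated control animals and to 0.366 and 0.469 RPM for *eggd-1* animals, as the labels would have it.

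All 3750 members were annotated as 21-nucleotide loci, and 3749 lay on chromosome IV. The left region of that chromosome, with members from 4323459 to 7988664, held 796 of them, and the right region, from 13148375 to 17262905, held 2920. The other 34 members, 1 of them on chromosome I, lay outside both regions. Intergenic positions made up 61.9% of the members, introns 34.2% and exons 3.92%, and the strands were used almost equally, with 49.2% on the plus strand. Among loci of chromosome IV with a 5′ end of their own, 35.8% of members were followed by another member, against a share of 26.6% members among all such loci, and 20.8% of oogenic loci were followed by a member. This is a description of positions, without a test.

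A share of the members could not be counted independently. Another annotated piRNA 5′ end lay within 2 bases on the same strand for 1014 members (27.0%), and 92.7% of these had a fractional count in some library, against 0.0365% of the other members. Reads of such loci were divided between partners. For 993 of them every partner with reads was another spermatogenic locus, and for 21 the partner had no read in any library, so none shared its reads with an oogenic or an unclassed locus. Grouped by shared 5′ ends, the members formed 3227 groups.

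The members spanned a wide range of abundance. Over the untreated libraries the mean level had a median of 0.411 RPM, quartiles of 0.0829 and 1.77 RPM, a 99th percentile of 32.6 RPM and a maximum of 248.8 RPM, and 1286 members exceeded 1 RPM. At least 1 read was found for 3138 and 3185 members in the untreated control libraries and for 3365 and 3318 in the *eggd-1* libraries. More members were therefore detected in both *eggd-1* libraries, which were the shallower ones. Over all piRNA loci the number with a read was also higher, at 10887 and 11081 in control and 11486 and 11282 in *eggd-1*. Each member had a read in at least 1 of the 6 libraries, which follows from taking members from the loci listed for these libraries. For 156 members no read was found in any untreated library. In the untreated libraries 209 were read only in *eggd-1* and 85 only in control. Neither of the latter counts was taken over all piRNA loci. The median level over all 3750 members was 0.248 and 0.256 RPM in control and 0.594 and 0.533 RPM in *eggd-1*.

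Spermatogenic piRNAs as a whole were about doubled in *eggd-1*. Their summed level was 6096 and 6192 RPM in untreated control animals and reached 12371 and 12736 RPM in *eggd-1* animals. Both *eggd-1* libraries lay above both controls, with a ratio of means of 2.04 ± 0.0476 (SD, n = 2 per genotype), a gap many times the spread between replicates. The exact two-sided permutation test gave p = 0.333, the smallest value that 2 libraries against 2 allow. The members took 10.5% (95% Wilson interval 10.4 to 10.5) and 10.2% (10.2 to 10.3) of all piRNA reads in control and 18.9% (18.8 to 19.0) and 18.2% (18.2 to 18.3) in *eggd-1*. These intervals cover counting error only, and the replicates of each genotype differed by more than their width.

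A ratio within each library, which no scaling of the library can move, gave the same picture. Spermatogenic reads per oogenic read were 0.313 and 0.303 in control and 0.676 and 0.639 in *eggd-1*, a ratio of 2.13 ± 0.0986 (SD, n = 2 per genotype; exact permutation p = 0.333). Spermatogenic reads per unclassed piRNA read were 0.186 and 0.183 in control and 0.356 and 0.342 in *eggd-1*. Summed oogenic levels were 19469 and 20444 RPM in control and 18311 and 19942 RPM in *eggd-1*, so that the genotypes overlapped for that class.

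**Figure D1:**
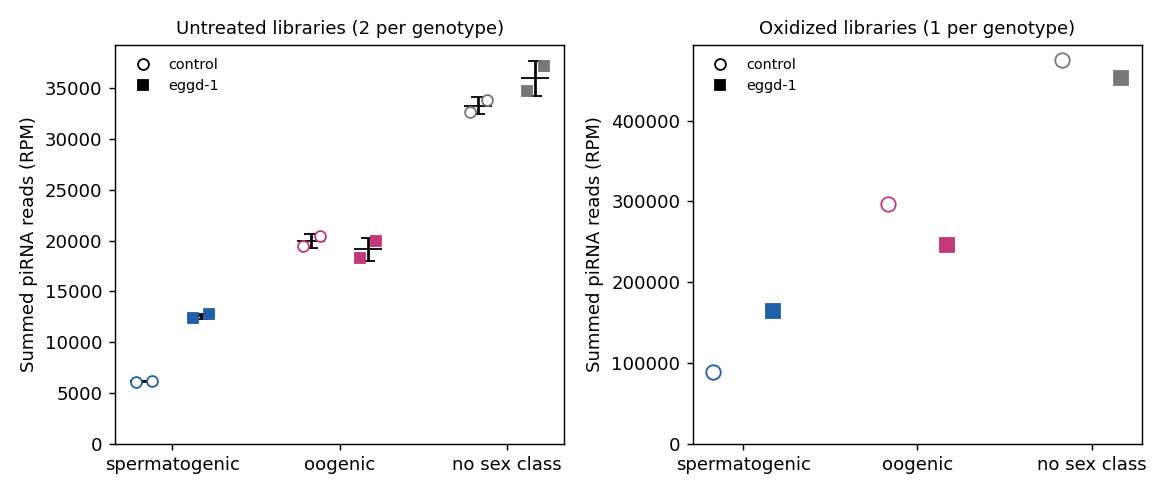
Summed RPM of each piRNA class in the 4 untreated libraries (left, with horizontal lines for means and error bars for the SD, n = 2) and the 2 oxidized libraries (right, 1 per genotype, on an axis of its own), with open circles for control and squares for *eggd-1*. Untreated *eggd-1* libraries stood at 12371 and 12736 RPM for spermatogenic loci, above both controls at 6096 and 6192 RPM, and overlapped with control for oogenic loci.

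The sum was carried by many loci rather than by the few at the top. The members needed, from the top, to reach 50% of the spermatogenic reads numbered 142 and 149 in control and 188 and 163 in *eggd-1*, and the 10 most abundant members held 14.6% and 12.6% of them in control and 9.69% and 11.3% in *eggd-1*. Those 10 together were at 862 and 750.1 RPM in control and 1189 and 1436 RPM in *eggd-1*, giving a ratio of 1.63 ± 0.269 (SD). Without them the summed ratio was 2.11 ± 0.0598 (SD).

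Locus by locus, and scaled by genome-mapped reads, the rise reached most of the members deep enough to test. Of the 3750 members, 2000 passed the filter on low counts, and the remaining 1750 held 2.02% of the spermatogenic reads. edgeR's quasi-likelihood test over all 6529 tested piRNA loci, with Benjamini-Hochberg adjustment, called 1283 members higher in *eggd-1* (2-fold or more, adjusted p below 0.05), which was 64.2% of those tested against a background of 26.9% over all tested piRNA loci. It called 0 members at least 2-fold lower, against a background of 0.444%. At an unadjusted p below 0.05, 0 members were at least 2-fold lower and 1 was lower at any fold. DESeq2, which gave an adjusted p to 1299 members, called 288 higher and 1 lower. Over its 4560 loci with an adjusted p the background was 7.46% higher, and 113 loci were called lower. The filter passed 308 members through the *eggd-1* libraries alone. The share called was therefore also taken over the 1438 members above the filter in both controls. Of these, 878 (61.1%) were called higher. That share was not computed over all piRNA loci, so the 26.9% is not its background. Of the 870 tested members averaging at least 50 counts, 547 (62.9%) were called higher, against a background of 20.3%. Counted by shared 5′ ends, 1178 of 1813 groups with a tested member held a call, and no background was computed for groups.

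The fitted log2 fold changes of the 2000 tested members had a median of 1.21, quartiles of 0.86 and 1.53 and a range from -0.89 to 3.67. They were above 0 for 1973 members and below 0 for 27. The corresponding median was 0.38 over all tested piRNA loci, -0.09 over 1253 oogenic loci and 0.21 over 3276 unclassed loci. At least 4-fold higher levels were called for 119 members, whereas 181 members lay within 0.5 of 0 on the log2 scale. Neither count was taken over all piRNA loci. Scaling by TMM factors moved the median of all tested loci by -0.39 on the log2 scale. The members' median was then 0.82, and 669 members (33.45% of those tested) were called higher against a background of 13.3%. DESeq2's size factors, put into the same edgeR test, moved the median of all tested loci by -0.44. The members' median was then 0.75 over 1985 tested members, and 561 (28.3%) were called higher against a background of 11.0%. The share of higher loci among all calls was 98.4% by genome-mapped reads, 82.2% under TMM, 74.6% with DESeq2's size factors in edgeR and 75.1% in DESeq2 itself.

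**Figure D2:**
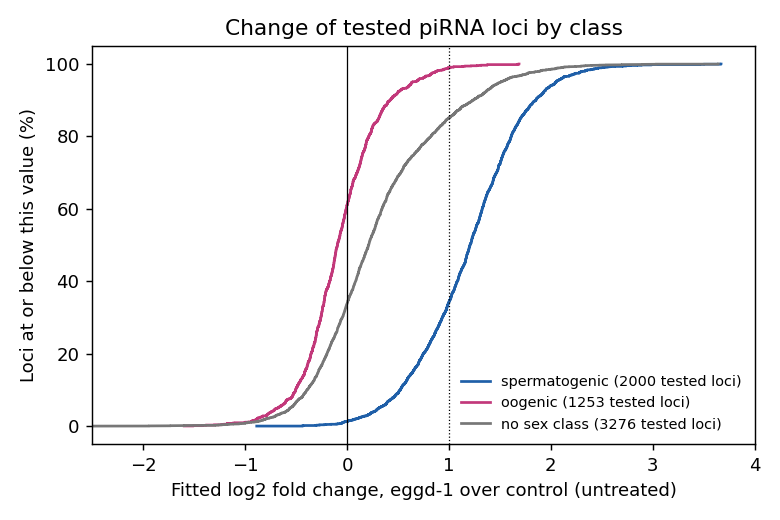
Cumulative share of tested loci (%) against the fitted log2 fold change, *eggd-1* over control, for spermatogenic, oogenic and unclassed piRNA loci, with the dotted line at 2-fold. The curve of the 2000 spermatogenic loci lies to the right, with a median of 1.21 against -0.09 for oogenic and 0.21 for unclassed loci.

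The change was also counted over every member without a filter or a model. Both *eggd-1* libraries lay above both controls for 2604 of the 3750 members (69.4%), against 38.3% of all piRNA loci, 16.4% of oogenic and 29.0% of unclassed loci. Both lay below both controls for 36 members (0.96%), against a background of 9.22%. The size of the change differed modestly between ranges of abundance. Among tested members the median log2 fold change was 1.25 for 714 members at up to 1 RPM. It was 1.204 for 222 members at 5 to 10 RPM and 1.00 for 81 members above 20 RPM. Of these, 61.8%, 66.7% and 50.6% were called. In the same ranges 21.1%, 7.85% and 1.64% of unclassed and 1.94%, 0% and 0% of oogenic loci were called. The lowest range lies nearest the filter. That filter passed 308 members through the *eggd-1* libraries alone, which may raise the values of this range, so no trend with abundance is read from it. Neither strand nor gene context separated the members by much, with medians of 1.198 on the plus and 1.22 on the minus strand, and of 1.19 in intergenic positions, 1.24 in introns and 1.304 in exons.

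The most abundant member in every library was 21ur-3775 (WBGene00049430, chromosome IV, 14180736 to 14180756, plus strand, intergenic). It was at 254 and 187 RPM in control and 269 and 285 RPM in *eggd-1*. The *eggd-1* values lay above both controls by less than the gap between the controls, and the log2 fold change of 0.33 (SE 0.19) was not called (adjusted p = 0.189, edgeR quasi-likelihood test with Benjamini-Hochberg adjustment). Under TMM scaling its sign turned, to -0.07. 21ur-2902 (15727963 to 15727983, minus strand, intergenic) was at 72.4 and 70.3 RPM in control and 91.0 and 95.9 RPM in *eggd-1*. Its log2 fold change of 0.39 did not pass either (adjusted p = 0.0817, edgeR) and was at 0 to 2 decimals under TMM, but passed with oogenic reads as the library size (adjusted p = 0.0172, edgeR).

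Of the 10 most abundant members, 3 were called at least 2-fold higher, without overlap between the genotypes. 21ur-1051 (14100344 to 14100364, minus strand, intergenic) was at 45.9 and 38.4 RPM in control and 116 and 115 RPM in *eggd-1*, which is a log2 fold change of 1.45 (SE 0.18, adjusted p = 8.53e-09, edgeR). 21ur-5980 (15277820 to 15277840, minus strand, intergenic) was at 35.9 and 33.5 RPM against 89.6 and 109 RPM. 21ur-742 (13767962 to 13767982, plus strand, in an intron of *sorb-1* on the same strand) was at 35.0 and 34.5 RPM against 77.0 and 121 RPM. These last 2 had log2 fold changes of 1.52 and 1.51, with *eggd-1* replicates further apart than the controls, and for 21ur-742 further apart than the lower *eggd-1* value was from the higher control. The other 5, 21ur-2332, 21ur-3609, 21ur-4866, 21ur-1278 and 21ur-3761, rose by 0.50 to 0.84 on the log2 scale and passed the adjusted p (0.000194 to 0.0249, edgeR) but not the 2-fold limit. Under TMM scaling none of these 5 passed (log2 fold changes of 0.11 to 0.45, adjusted p = 0.0679 to 0.666, edgeR). Without *eggd-1* replicate 2, 4 of them did not pass either, at adjusted p = 0.0784 for 21ur-2332, 0.227 for 21ur-3609, 0.340 for 21ur-4866 and 0.248 for 21ur-3761 (edgeR). 21ur-3609 also lost the adjusted p without control replicate 2 (0.202, edgeR), and 21ur-4866 without either control replicate (0.0823 and 0.126, edgeR). Among these, 21ur-4866 and 21ur-3761 share a 5′ end with a second annotated locus, so their counts are uncertain.

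The 10 called members with the largest rise among loci averaging at least 50 counts changed by 2.06 to 2.54 on the log2 scale. The largest was 21ur-6544 (WBGene00173771, 14884412 to 14884432, plus strand, in an intron of *eps-8* on the same strand), at 6.69 and 4.42 RPM in control and 28.0 and 36.1 RPM in *eggd-1*. Its log2 fold change was 2.54 (SE 0.20, adjusted p = 1.99e-14, edgeR quasi-likelihood test), and it shares its 5′ end with a second locus. 21ur-3037 (17233407 to 17233427, minus strand, intergenic), with a 5′ end of its own, was at 10.04 and 9.35 RPM in control against 39.98 and 44.8 RPM, for a log2 fold change of 2.13 (SE 0.19, adjusted p = 5.04e-13, edgeR). In both, every *eggd-1* value was above every control value by more than the spread within either genotype. 21ur-6875 (6657393 to 6657413, plus strand, intergenic) was at 1.03 and 1.54 RPM against 7.68 and 6.40 RPM, and 21ur-4395 (6475793 to 6475813, minus strand, intergenic) at 1.74 and 1.47 RPM against 6.31 and 9.42 RPM. Both lie in the left region, as do 21ur-8039 (5386198 to 5386218) and 21ur-5992 (5597116 to 5597136, in an intron of *fkh-7* on the opposite strand). The remaining 4 of the 10, 21ur-571, 21ur-3535, 21ur-5717 and 21ur-7757, lie in the right region, and 21ur-3535 shares a 5′ end with another locus.

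The 5 tested members of at least 50 mean counts with the lowest fold changes were lower in *eggd-1* by the fitted value, and whether they passed depended on the scaling. 21ur-2525 (15342077 to 15342097, plus strand, intergenic) was at 2.73 and 3.30 RPM in control and 2.65 and 2.26 RPM in *eggd-1*. 21ur-3972 (17156627 to 17156647, plus strand, intergenic) was at 25.9 and 29.7 RPM against 24.0 and 25.8 RPM. 21ur-4730 (15612149 to 15612169, plus strand, intergenic) was at 7.88 and 9.12 RPM against 7.27 and 7.33 RPM. In these 3 the *eggd-1* values were the lower ones, without overlap, while in 21ur-4145 and 21ur-3272 the genotypes overlapped. None of the 5 passed the test (log2 fold changes of -0.30 to -0.05, adjusted p = 0.391 to 0.881, edgeR) by genome-mapped reads. Under TMM 3 passed as lower, namely 21ur-3972 (log2 fold change -0.55, adjusted p = 0.0173, edgeR), 21ur-4730 (-0.61, adjusted p = 0.0134) and 21ur-2525 (-0.69, adjusted p = 0.0275). The direction of 21ur-4145 and 21ur-3272 turned when oogenic reads set the library size and in some fits without 1 library.

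One member fell at an adjusted p below 0.05, singled out after its values were seen, against 1572 that rose by that criterion (backgrounds of 2.34% and 35.9%). 21ur-72 (16705330 to 16705350) was at 2.45 and 2.14 RPM in control and 1.55 and 0.938 RPM in *eggd-1*, with a log2 fold change of -0.89 (SE 0.30, adjusted p = 0.0162, edgeR). In the oxidized libraries it was at 8.52 RPM in control and 10.8 RPM in *eggd-1*, the opposite order. It was also the single member called at least 2-fold lower by TMM scaling, by DESeq2 and by edgeR with DESeq2's size factors. Over all piRNA loci these settings called 189, 113 and 246 loci lower. Without *eggd-1* replicate 1 its log2 fold change was -1.29.

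**Figure D3:**
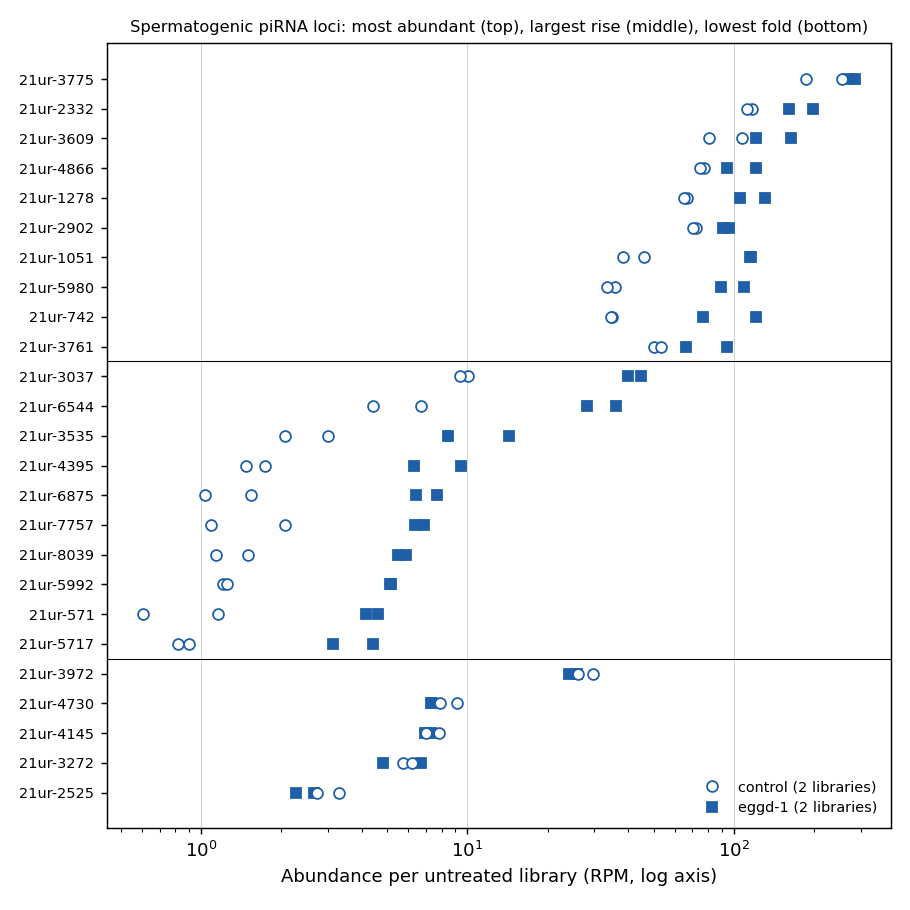
RPM (log axis) of the 25 named spermatogenic loci in each untreated library, with open circles for control and squares for *eggd-1*. Control and *eggd-1* points separate for the loci with the largest rise (21ur-6544 from 6.69 and 4.42 to 28.0 and 36.1 RPM) and lie close together for 21ur-3775 and the lowest-fold loci.

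The size of the change differed along chromosome IV. In the left region, chosen with the fold changes along the chromosome in view, 261 of 303 tested members were called higher (86.1%, background 50.4% of tested piRNA loci there), with a median log2 fold change of 1.50. In the right region 1013 of 1683 were called (60.2%, background 23.2%), with a median of 1.16. Members averaging at least 50 counts had medians of 1.45 (80 loci) and 1.12 (783 loci). The filter kept 303 of 796 left and 1683 of 2920 right members. Without the filter, both *eggd-1* libraries lay above both controls for 64.7% of left and 70.7% of right members. The corresponding shares of all piRNA loci were 49.1% and 36.6%. For the members this order is opposite to that of the calls. Summed levels were 445 and 476 RPM in control and 1168 and 1206 RPM in *eggd-1* on the left, and 5631 and 5699 RPM against 11156 and 11487 RPM on the right. The ratio of genotypes was thus 2.58 ± 0.135 on the left and 2.00 ± 0.0447 on the right (SD, n = 2 per genotype).

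Within each library, spermatogenic reads of the left region per read of the right region were 0.0790 and 0.0835 in control and 0.105 and 0.105 in *eggd-1*. The genotypes did not overlap, and the *eggd-1* mean was 1.29 ± 0.0501 times the control mean (exact permutation p = 0.333, the smallest possible). In the oxidized libraries the same ratio was 0.0755 in control and 0.102 in *eggd-1*. This tilt was not particular to the spermatogenic loci. The corresponding genotype ratio was 1.42 for oogenic and 1.55 for unclassed loci, and oogenic loci had a median log2 fold change of 0.47 on the left and -0.12 on the right. Under TMM scaling the members' medians were 1.12 on the left and 0.78 on the right, and those of oogenic loci 0.09 and -0.50. The share of members on the left, 21.2%, compared with 8.24% of oogenic and 19.8% of unclassed loci.

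**Figure D4:**
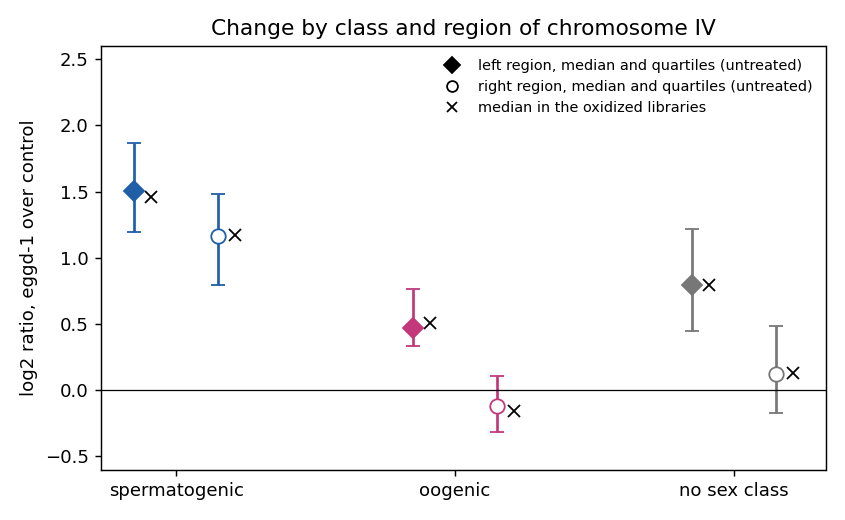
Fitted log2 fold change, *eggd-1* over control, of tested loci in the left (diamonds) and right (circles) regions of chromosome IV by piRNA class, as medians with bars from the lower to the upper quartile, and crosses for the median log2 ratio of the oxidized libraries. Spermatogenic medians are 1.50 on the left and 1.16 on the right, and each other class also has its higher median on the left.

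Members within introns were spread over many genes. The introns of 12 genes held at least 20 members each, led by Y37A1A.4 with 35, *unc-5*, which encodes a netrin receptor, with 31, and *egl-23*, which encodes a potassium channel, with 30. Within these 12 host genes, the medians of tested members ran from 0.93 in *anoh-2* (right region) to 1.45 in *unc-5* (left region), on the log2 scale. Introns on the same strand as the host held 606 members and those on the opposite strand 677, with 2 members of the 1281 lying in introns of both kinds. Summed over its members, *unc-5* gave a mean of 70.5 RPM in control and 166 RPM in *eggd-1*, and *sorb-1* gave 86.2 and 198 RPM.

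The single member off chromosome IV was 21ur-14742 (WBGene00165439, chromosome I, 6546722 to 6546742, in an exon of *acdh-4* on the opposite strand). It had 0 reads in all 4 untreated libraries. In the oxidized libraries it had 13 reads in control (0.480 RPM) and 2 in *eggd-1* (0.103 RPM, under the limit of 3 counts), so no fold was taken.

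After periodate oxidation the members took a larger share of the mapped reads in both genotypes. The summed spermatogenic level was 89064 RPM in the oxidized control, 14.5 ± 0.159 times the untreated mean, and 164479 RPM in oxidized *eggd-1*, 13.1 ± 0.270 times the untreated mean (SD of the untreated libraries alone, n = 2). There was 1 oxidized library per genotype, so no test was made, and in control the strain differs together with the treatment. Locus by locus the oxidized-to-untreated ratio had a median of 14.0 over 1686 members in control (quartiles 11.1 and 17.6) and of 14.0 over 2065 members in *eggd-1* (quartiles 11.4 and 17.4). None of these members was below 1. Summed oogenic levels were 14.9 times the untreated mean in control and 12.9 times in *eggd-1*, and unclassed levels 14.3 and 12.6 times, so the members' enrichment was near that of the other piRNAs. Where piRNA reads themselves set the library size, the members' enrichment was 0.9996 in control and 1.03 in *eggd-1*.

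The genotype difference was seen again after oxidation. The oxidized *eggd-1* library held 1.85 times the spermatogenic RPM of the oxidized control, and the members took 19.0% of its piRNA reads against 10.3% in control. Spermatogenic reads per oogenic read were 0.667 and 0.300. Of 2517 members with at least 100 reads over both libraries, 1723 (68.5%) were at least 2-fold higher in *eggd-1*, against 30.4% of all piRNA loci. At least 2-fold lower were 0 members, against 22 of the 8142 piRNA loci with as many reads. Below the control were 39 members, against a background of 28.7%. The median log2 ratio was 1.22 with a pseudocount of 0.1 RPM, with 1.46 on the left and 1.17 on the right of chromosome IV.

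The untreated and oxidized differences were related over the members. Across 1994 loci Pearson's r was 0.55 and Spearman's rho 0.52, given as a description, since loci of a library share its depth and some share reads. Of 1279 members called higher untreated and measured after oxidation, 1068 (83.5%) were at least 2-fold higher there too and 1 was below the control. The background over all piRNA loci called higher untreated was 80.5% (1408 of 1750), but the members make up most of those loci. In the other classes 338 of 460 unclassed and 2 of 11 oogenic loci were at least 2-fold higher after oxidation. The most abundant members differed less between genotypes after oxidation, with a summed oxidized ratio of 1.1996 for the top 10 against 1.94 for the rest.

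**Figure D5:**
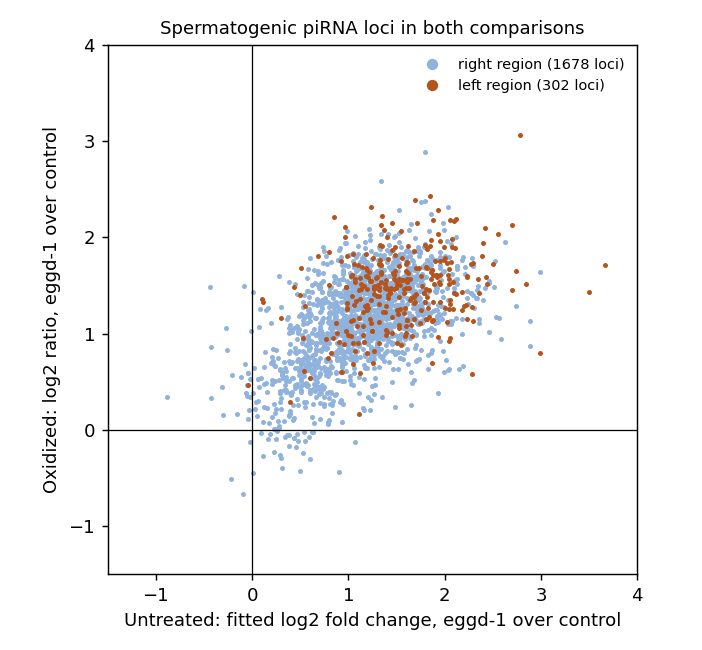
Oxidized log2 ratio of *eggd-1* to control (1 library each) against the untreated fitted log2 fold change (2 libraries each), 1 point per spermatogenic locus, coloured by left or right region of chromosome IV. Most points lie in the quadrant that is higher in *eggd-1* in both comparisons. Over all positions these are 1937 of 1994 members, against 3870 of 6505 piRNA loci of every class.

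Another class of small RNAs of the male germ line moved with the members in the untreated libraries. 26G-RNAs of genes targeted by ALG-3 and ALG-4, Argonautes of the male germ line that act in spermatogenesis, summed to 324 and 351 RPM in control and 1179.7 and 1048 RPM in *eggd-1*, with a ratio of 3.30 ± 0.332 (SD). They were 596 RPM in the oxidized control and 519 RPM in oxidized *eggd-1*, the opposite order. Their part in the rise of the spermatogenic piRNAs was not tested.

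22G-RNAs against 21 genes of the piRNA pathway were read as a companion measure, and they report small RNAs against each transcript, not its mRNA. edgeR's test over all 11741 genes with 22G-RNAs found 3 of the 21 higher and 6 lower in *eggd-1* (adjusted p below 0.05). As shares of the list, both were below the backgrounds of 21.7% and 40.8%. None changed 4-fold (background 6.85%). Under TMM scaling 10 of the 21 were higher, a share above the background of 29.4%, and 2 were lower, a share below the background of 31.7%. Among transcription factors of piRNA genes, *snpc-1.3*, which acts at male piRNA genes, had the largest change. Its 22G-RNAs were at 4.51 and 4.83 RPM in control and 11.5 and 10.6 RPM in *eggd-1*, without overlap, for a log2 fold change of 1.24 (SE 0.12, adjusted p = 2.99e-10, edgeR). For *tra-1*, whose product represses *snpc-1.3* in the female germ line, the log2 fold change was -0.43. A link between these changes was not tested. *prde-1* and *snpc-4*, needed for transcription of piRNA genes of either sex, had changes of 0.03 and -0.12 and did not pass. Among processing factors, *erh-2*, of the PETISCO complex that handles piRNA precursors, rose by 0.60, *henn-1*, which encodes the 3′ methyltransferase, fell by 0.70, and *parn-1*, which encodes the 3′ trimmer, was at -0.04 and did not pass. *prg-1* went from 315 and 319 RPM to 358 and 397 RPM, a change of 0.25 (adjusted p = 0.00282, edgeR). The other 4 genes that fell, *snpc-1.1*, *tofu-1*, *tofu-5* and *tofu-7*, had changes of -0.29 to -0.19 and did not pass under TMM.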

How the data were processed

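Small RNA libraries of whole adults were cloned by the authors after PIR-1 treatment, without or with periodate oxidation, trimmed with Trim Galore and aligned with Bowtie. The deposited tables list per feature an expected count (reads with several positions are divided, and 86.8% to 88.1% of piRNA counts were exactly whole as deposited) and its value in RPM. The authors' RPM is relative to genome-mapped reads, which were recovered as count over RPM. The members and lists were chosen with earlier results of these data known. Expected counts were rounded and all piRNA loci fitted together with edgeR 4.0.16 (R 4.3.3, quasi-likelihood test, genome-mapped reads as library size, filterByExpr with a minimum count of 10). Loci were called at a 2-fold change and an adjusted p (Benjamini-Hochberg) below 0.05. Sums per library were compared by two-sided exact permutation tests in scipy 1.17.1. On simulated counts with a dispersion of 0.02 and 200 of 6529 loci changed 4-fold (150 higher, 50 lower), 188 were recovered with 3 false calls. In the data more loci were called, mostly in 1 direction and by smaller changes. The simulation therefore gives no error rate for the calls made here. Replicates, described as biological, differed beyond counting noise (chi-square per degree of freedom 5.34 in control and 4.06 in *eggd-1*), and PCR duplicates were not marked by molecular identifiers.

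Coordinates came from the Ensembl WBcel235 annotation, matched by WormBase ID for 13994 loci. The alternatives tried were TMM, DESeq2 1.42.0, miRNA, oogenic or assigned counts as library size, other filters, a replicate block, leaving out each library and, added after the data were seen, loci with their own 5′ end and DESeq2's size factors in edgeR's test. Named loci were the 10 most abundant members, the 10 largest rises and 5 lowest fold changes among members averaging at least 50 counts, and the top member after oxidation. Sequence and motif features were not analysed here, and *tofu-3* was not matched.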

Additional observations from a re-analysis of the deposited data

Results flagged for a closer look

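For 4 of the named loci the genotypes differed in opposite directions in the untreated and the oxidized libraries, and the difference between these comparisons was not tested, with 1 oxidized library per genotype. 21ur-3609 was higher in both untreated *eggd-1* libraries (ratio of mean RPM 1.52) and lower in the oxidized one, at 0.808 times the control. 21ur-4866 had ratios of 1.42 untreated and 0.743 oxidized, and its counts are divided with a second locus of the same 5′ end. In the other direction, 21ur-3972 had ratios of 0.894 untreated and 1.12 oxidized, and 21ur-2525 had ratios of 0.814 and 1.11. The control strain also differs between the comparisons.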

How the results depend on the processing

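Members called higher numbered 1283 of 2000 tested (64.2%, background 26.9%) by genome-mapped reads and 669 of 2000 (33.45%, background 13.3%) under TMM. Among loci averaging at least 50 counts they were 547 of 870 (62.9%, background 20.3%). With the 2-fold limit inside the test they were 269 of 2000 (13.45%). DESeq2, which also changes the test and filter, called 288 of 1299 with an adjusted p (background 7.46%). DESeq2's size factors in edgeR's test gave 561 of 1985 (28.3%, background 11.0%). Omitting a single library leaves 1 library in a genotype and changes the number tested, so only the effect size is given. The members' median log2 fold change was then 1.15 to 1.26. With miRNA, assigned and oogenic counts as library size, 1150 of 1973 (58.3%), 1276 of 2000 (63.8%) and 1383 of 2028 (68.2%) were called. Without the filter 1382 of 3529 (39.2%) were called, and 984 of 1485 (66.3%) over loci with their own 5′ end. No background share was computed for these settings. Members called lower numbered 0, but 1 (21ur-72) under TMM, DESeq2 and edgeR with DESeq2's size factors. Over all piRNA loci 0.444% were called lower by genome-mapped reads. Counts over all loci were 189 of 6529 under TMM, 113 of 4560 in DESeq2 and 246 of 6571 with its size factors in edgeR. The median log2 fold change of 1.21 became 0.82 under TMM and 0.75 with DESeq2 or its size factors. The summed ratio of 2.04 became 1.56 under TMM, 1.93 by miRNA reads, 2.13 by oogenic reads and 2.11 without the 10 most abundant members. The oxidized ratio of 1.85 became 1.84 by piRNA reads and 1.94 without those members. Enrichment on oxidation became 10.2 in control and 9.27 in *eggd-1* by assigned reads, 0.9996 and 1.03 by piRNA reads, and 13.5 in *eggd-1* without the 10 most abundant members. The left-to-right ratio was 1.26 to 1.33 without each library in turn. Of 175 alternative values of the named loci, 168 kept their direction and their call at 2-fold and adjusted p together. By the adjusted p alone, 12 values over 5 loci lost it (all 5 under TMM, the rest without single libraries) and 5 over 4 loci gained it (3 under TMM, and 21ur-2902 by oogenic reads and with a replicate block, at 0.0388 in edgeR). The 7 others turned sign near 0, namely 21ur-3775 (-0.0697) and 21ur-2902 (-0.00076) under TMM, 21ur-4145 (0.00246) and 21ur-3272 (0.0196) by oogenic reads, and the same 2 loci when single libraries were omitted, where 21ur-4145 ran from -0.142 to 0.0236 and 21ur-3272 from -0.308 to 0.171. The cause was not tested. Replicate numbers did not pair the samples (r = 0.02 over 6529 loci), and a replicate block gave 1267 members called higher. Depth limits what can be said of the 1750 members that were not tested.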

Other observations

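Unclassed piRNA loci were counted by region after the data were seen. Of 463 unclassed piRNA loci called higher in *eggd-1*, 163 (35.2%) lay in the left region of chromosome IV, which held 14.3% of the tested unclassed loci, and the largest log2 fold change among them was 3.64. Among 2361 spermatogenic loci with at least 20 untreated counts, 18 had counts equal, to 6 decimals, to those of another member in all 6 libraries.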
